A study of Mus musculus with 20 samples.

Results

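The comparison described here set the livers of 5 progeroid mice against those of 5 wild type mice, all fed the control diet. It was the only criterion for choosing the arrays, which are 10 of the 20 in the series, and all 17097 genes with an unambiguous probe set were members. Progeroid mice carried a shortened Ercc1 allele (Ercc1Δ) over a null allele (Ercc1-). They came from a cross of an Ercc1Δ/+ parent of one inbred strain, C57BL6J or FVB, with an Ercc1+/- parent of the other, and the controls were wild type littermates, so every animal was an F1 C57BL6J/FVB hybrid. The control diet was AIN93G pellets, and livers were taken at 11 weeks of age. A further 5 progeroid and 5 wild type mice of the same cross had their food cut in weekly steps to a restriction of 30%. They share no array with the comparison and are used below to show where the same contrast repeated. Their arrays also enter the model that estimates the spread between animals and the choice of the probe set for each gene. The alleles are in the germline, so every cell of the animal carries them, and a change in liver can arise in liver or elsewhere.

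ERCC1 is the partner of the nuclease XPF. Together they cut the damaged strand in nucleotide excision repair, which removes bulky lesions from the whole genome and, in its transcription-coupled branch, lesions that stall RNA polymerase on the transcribed strand; they also act in the repair of interstrand crosslinks. Mice with little ERCC1 grow poorly and age early, and the liver, with its large polyploid hepatocytes, is one of the organs affected. In whole liver, fewer cells of a type and less RNA per cell cannot be told apart.

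Values are log2 levels after robust multi-array averaging (RMA), 1 per gene and animal, in arbitrary units without a true zero, so that folds of dim genes are understated. Differences are progeroid minus wild type, with a moderated standard error (SE) from a limma model of all 20 arrays; a gene rose or fell when its Benjamini-Hochberg adjusted p was under 0.05. Wild type animals are given in the order 401 to 405 and progeroid animals in the order 321, 323, 325, 326, 327. Albumin (Alb), the main plasma protein of hepatocytes, lay between 14.23 and 14.31 on all 10 arrays, the top of the scale. The Y-linked gene Eif2s3y lay between 9.57 and 10.19 and no Xist probe set exceeded 4.48, in these 10 arrays. The Gapdh 3′ minus 5′ signal, which grows as RNA is shortened, was 0.66 ± 0.06 (SD, n = 5) in wild type and 0.93 ± 0.28 in progeroid livers (exact permutation test, two-sided, p = 0.0476, adjusted over 4 tests 0.0952). It was highest, at 1.38, in progeroid animal 327.

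Ercc1 itself separated the groups. Its brightest probe set read 6.51, 6.60, 6.53, 6.62 and 6.44 in wild type livers and 5.31, 5.27, 5.14, 5.55 and 5.24 in progeroid livers. The lowest wild type value was well above the highest progeroid one. The difference was -1.24 ± 0.098 (SE; limma adjusted p = 8.73e-08). Another of its probe sets was also lower, with means of 4.97 and 3.37, while the other 2 gave differences of 0.02 and -0.03. Transcripts still made from the Δ and null alleles can bind these probe sets, and which part of the gene each covers was not determined here. Around Ercc1 on chromosome 7, 1 of the 40 nearest measured genes was higher (Apoc2, a cofactor of lipoprotein lipase) and 5 were lower (Ccdc61, Sympk, Dmwd, Qpctl and Ppp1r13l), against 6.7% and 4.32% of all genes tested. Ccdc61, Sympk, Dmwd and Ppp1r13l did not pass in a fit of the 10 control diet arrays alone or with the Gapdh 3′ minus 5′ signal as a covariate, and each lost its call without 6 or 7 of the 10 animals, left out 1 at a time.

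In all, 1145 genes rose (6.7% of those tested) and 738 fell (4.32%). Together these are 11% of the genes tested, the share against which the counts in gene lists below are to be read. Most changes were small. The median rise was 1.41-fold and the median fall 1.33-fold; 128 genes rose and 68 fell by 2-fold or more, and 16 rose and 6 fell by 4-fold or more. The 5 progeroid values lay entirely outside the 5 wild type values for 1259 of the 1883 changed genes, against 9.35% of all genes. The split into rises and falls depends on the scaling. With each array centred on its median over all probe sets 1034 genes rose and 872 fell. With each array centred on the median of the 17097 genes, which shifts every difference by -0.103, 764 rose and 2798 fell, so that the share of rises went from 60.8% to 21.4%; small differences are therefore to be read against that shift.

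The steepest rise was that of Afp, which encodes alpha-fetoprotein, the albumin-like plasma protein of fetal liver. It was 4.06, 3.96, 4.19, 4.11 and 4.27 in wild type livers and 8.45, 8.41, 8.11, 8.43 and 8.34 in progeroid livers. Every progeroid animal was raised to nearly the same level. The difference was 4.23 ± 0.17, or 18.8-fold (limma adjusted p = 1.66e-12). Of 19 fetal and imprinted growth genes, 5 rose and 1 fell (median difference -0.0046); without progeroid animal 325 or wild type animal 402, 2 fell. The fall was Zfhx3, a long gene of a transcription factor that represses Afp (-0.44). Meg3, an imprinted noncoding RNA of the Dlk1 domain, lay between 5.20 and 5.33 in wild type livers and was 7.10, 7.49, 7.54, 7.87 and 8.55 in progeroid livers. Sox4, a transcription factor of progenitor cells, rose by 1.13, Cd24a, a surface protein of progenitor and bile duct cells, by 1.06, and Plagl1, an imprinted zinc finger factor, by 0.85. Dlk1 (3.84 and 3.80) and Igf2 (3.68 and 3.73), the classic imprinted growth genes of fetal liver, stayed near the low end in both groups. Afp was thus not accompanied by every fetal gene.

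Next in size was Pls1, the gene of plastin 1, which bundles the actin of microvilli. Its wild type values were 4.06, 4.37, 5.46, 4.59 and 5.03, and its progeroid values 8.46, 8.31, 7.68, 8.0 and 8.14. No wild type animal came within 2 log2 units of a progeroid one. Sult1e1, the estrogen sulfotransferase, was even across wild type livers, at 4.57, 4.39, 4.56, 4.43 and 4.27, but ranged over 8.83, 6.13, 8.01, 7.98 and 7.50 in progeroid livers. Animal 323 had the lowest progeroid value and was still above all controls. Lcn2, which encodes the siderophore-binding protein lipocalin 2, stood at 5.69, 5.45, 5.63, 4.65 and 4.77 against 7.90, 7.99, 8.68, 8.30 and 7.90 (difference 2.91 ± 0.25). Slc16a5, of the monocarboxylate transporter family, was 4.42, 4.64, 4.76, 3.62 and 4.21 in wild type livers and 6.87, 5.60, 6.91, 7.03 and 7.14 in progeroid livers; animal 323 again had the lowest value of its group.

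The remaining large rises, each without overlap between the groups, were of mixed function. Hsd3b4, of the 3-beta-hydroxysteroid dehydrogenase family, rose 6.24-fold, Tff3, a mucosal trefoil peptide, 5.65-fold, Dnaic1, a dynein chain of motile cilia, 4.65-fold and Prss8, the membrane protease prostasin, 4.46-fold. Blnk, an adaptor of B cell receptor signalling, rose 4.15-fold. None of 7 B and plasma cell markers passed in limma (2 at an unadjusted p under 0.05, median difference -0.03). All 7 had wild type means under 5, so a change in them could be missed. Itih5, an inter-alpha-trypsin inhibitor heavy chain, rose 3.58-fold, Ubd, the ubiquitin-like modifier FAT10, 3.42-fold and Ttc39a 3.38-fold. Neat1, the noncoding RNA that scaffolds paraspeckles, was already abundant in wild type livers, at 10.18, 11.02, 10.96, 11.00 and 10.56. In progeroid livers it reached 12.61, 12.38, 12.77, 12.28 and 12.62, higher in all 5 animals.

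Mfsd2a fell most. It encodes the transporter that carries lysophospholipids with long polyunsaturated fatty acids into cells. Wild type levels were 9.96, 10.38, 9.98, 9.55 and 9.41; progeroid levels were 7.11, 6.02, 5.34, 7.24 and 7.94. The progeroid animals differed widely among themselves, yet the highest of them was below the lowest wild type animal (difference -3.12 ± 0.41; limma adjusted p = 3.04e-05). Serpina12, which encodes the adipokine-like serpin vaspin, ran from 11.60 to 12.13 in wild type livers and was 9.52, 10.76, 9.35, 9.76 and 8.65 in progeroid livers. Ddah1, the enzyme that degrades asymmetric dimethylarginine, an inhibitor of nitric oxide synthesis, was 10.66, 10.55, 10.20, 10.49 and 10.48 against 8.39, 7.82, 8.07, 8.88 and 8.17, with a difference of -2.21 ± 0.19. Among the other large falls were Lipg, the endothelial lipase (3.61-fold), Gna14, a G protein alpha subunit (3.41-fold), Csad, the cysteine sulfinic acid decarboxylase of taurine synthesis (2.83-fold), and Dnase2a, the lysosomal DNase (2.65-fold). None of these 7 overlapped between the groups. Csad and Dnase2a are each read by a suffixed probe set, of a kind that can bind several transcripts. Wild type values were 9.36, 8.26, 9.99, 8.86 and 8.90 for Csad and 9.46, 8.68, 10.26, 9.03 and 9.16 for Dnase2a. They varied alike between animals, and whether these are separate falls was not tested.

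**Figure D1:**
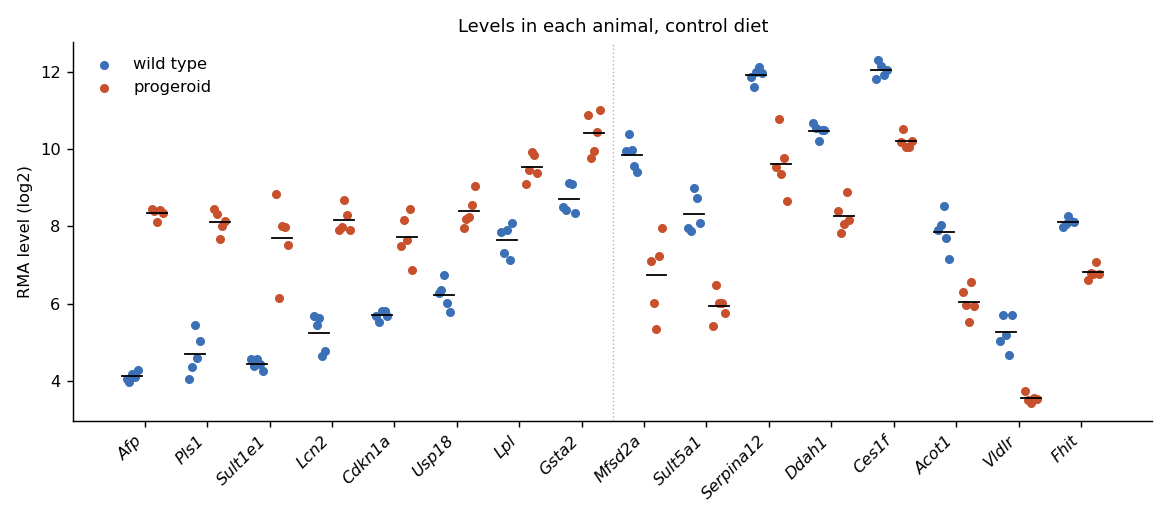
RMA level (log2) of 16 genes in each of the 5 wild type (blue) and 5 progeroid (orange) control diet livers; each point is 1 animal and the bar is the group mean. The 8 genes left of the dotted line rose and the 8 on the right fell, and in each of the 16 the groups do not overlap.

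Falls were more often of long genes than rises were. The span of a gene, from the first to the last base of its annotated transcripts, was taken from RefSeq (GRCm38.p6) for 17053 genes. Fallen genes had a median span of 50.7 kb, raised genes 19.6 kb and all genes 20.1 kb. Genes over 100 kb made up 35.8% of the falls (264 genes) and 6.64% of the rises (76 genes), against 12.5% of all genes.

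Among the 8878 genes with a mean level above 5 the share that fell climbed with span. It was 4.26% of genes under 10 kb, 4.09% from 10 to 20 kb and 4.21% from 20 to 50 kb. Above that it was 7.33% from 50 to 100 kb, 15.6% from 100 to 200 kb, 35.6% from 200 to 500 kb and 50.9% (29 of 57) over 500 kb. The share that rose was 11.3%, 12% and 11.2% in the 3 classes up to 50 kb, and 8.87%, 5.63%, 2.65% and 3.51% in the 4 longer classes. Median differences were 0.03 in genes under 10 kb, -0.22 from 200 to 500 kb and -0.45 over 500 kb. Without the limit on level, 17.3% of the genes over 500 kb fell and 2.67% of those under 10 kb. The pattern was present at each level of expression: genes over 100 kb fell in 18.3% of cases among the genes of lowest level, 26.6% of those in the middle and 24.4% of those highest (3 groups of equal size), against 3.01%, 5.11% and 4.44% of genes under 20 kb.

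**Figure D2:**
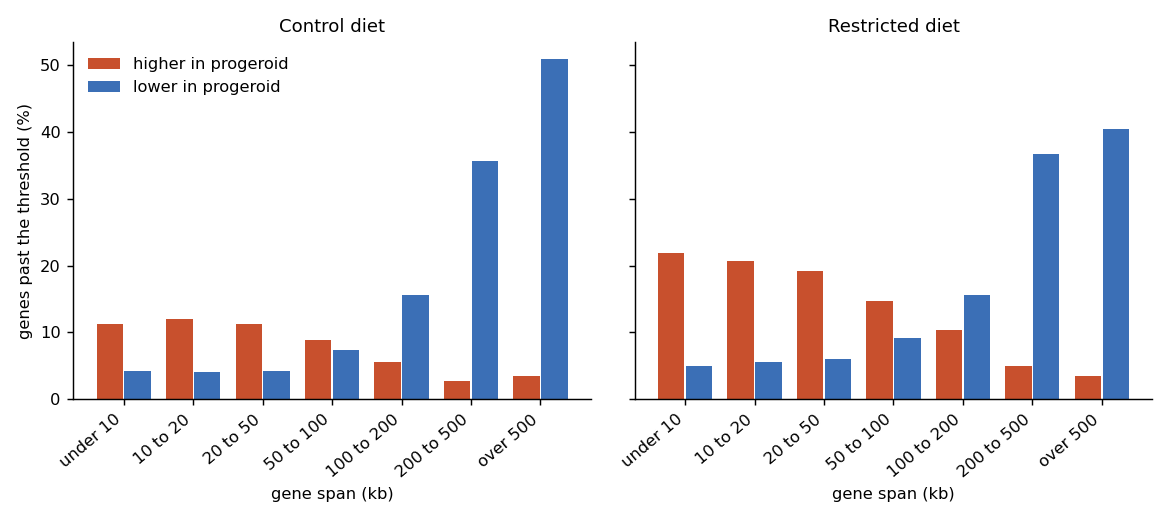
Percent of genes past the threshold in 7 classes of gene span (kb, mean level above 5), for progeroid against wild type mice on the control diet (left) and the restricted diet (right). On the control diet the bars for lower genes stay between 4.09% and 4.26% up to 50 kb and reach 50.9% over 500 kb, and on the restricted diet they go from 4.93% to 40.4%; the bars for higher genes are lowest from 200 to 500 kb on the control diet (2.65%) and over 500 kb on the restricted diet (3.51%).

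One value per animal gave the same picture. The mean level of the 1032 genes over 100 kb minus that of the 4018 genes under 20 kb was -0.81, -0.67, -0.69, -0.75 and -0.67 in wild type livers and -0.97, -0.94, -0.88, -0.85 and -0.91 in progeroid livers. Wild type animal 401 came closest to the progeroid range but did not enter it. The group means were -0.72 ± 0.06 and -0.91 ± 0.05 (SD, n = 5), a difference of -0.19 (exact permutation test over 252 assignments, two-sided, p = 0.00794, the smallest this design allows; adjusted over 4 tests 0.0317). In the restricted groups, whose animals are all different, wild type livers lay between -0.73 and -0.60 and progeroid livers between -0.92 and -0.83, again without overlap. Adding a constant to a whole array leaves this value unchanged, since it is a difference within an array. Scaling that depends on level was not tested, and long genes were dimmer (median level 6.91 over 500 kb, 8.09 under 10 kb). The value per animal was not adjusted for the Gapdh 3′ minus 5′ signal. With the Gapdh 3′ minus 5′ signal as a covariate, 473 genes fell instead of 738, and 20 instead of 23 of 38 listed very long genes.

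**Figure D3:**
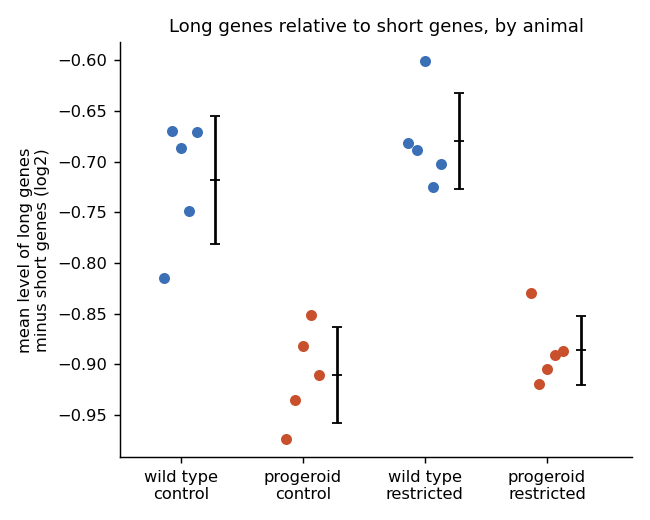
Mean log2 level of 1032 genes over 100 kb minus that of 4018 genes under 20 kb, 1 point per animal in each of the 4 groups, with group mean and SD (n = 5) at the side. The 5 progeroid control animals sit between -0.97 and -0.85, all below the 5 wild type control animals, and the restricted groups are separated in the same way.

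Of the 38 measured members of a list of very long genes, 23 fell and none rose (median difference -0.51, against -0.01 for all genes). Fhit, a diadenosine triphosphate hydrolase whose gene of 1612 kb spans a common fragile site, was 7.99, 8.05, 8.27, 8.15 and 8.11 in wild type livers and 6.62, 6.80, 6.77, 7.07 and 6.77 in progeroid livers, a difference of -1.31 ± 0.09. Dpyd, the first enzyme of pyrimidine breakdown, with a gene of 871 kb, fell from 12.36, 12.35, 12.32, 12.32 and 12.43 to 11.17, 11.32, 11.41, 11.34 and 11.23. Both groups of Dpyd values were tight and far apart. The longest gene that fell was Ptprd, a receptor tyrosine phosphatase of 2271 kb (difference -0.57 ± 0.12). It was followed by Fhit, Naaladl2 (1346 kb, -0.62), Tenm3, a teneurin cell adhesion protein (1297 kb, -1.51), and Pard3b, of the PAR polarity complex (1004 kb, -1.27). Magi1, a junction scaffold (-1.18), Ptprg, a receptor phosphatase (-1.08), Rabgap1l (-1.02) and Nfia, a nuclear factor I (-0.81), fell as well, and none of their values overlapped between groups.

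The longest genes that rose were Robo2, Lrrc4c, Snhg14, Nrg1 and Ank2. All 5 had wild type means between 3.03 and 4.21, near the low end of the scale, and only in Lrrc4c and Snhg14 did the groups not overlap. Of the 25 largest falls 8 were genes over 100 kb, among them Ddah1 (136 kb), Tiam2, a Rac exchange factor (193 kb), Fars2, the mitochondrial phenylalanyl-tRNA synthetase (420 kb), and Erc2 (856 kb). Of the 25 largest rises 1 was, Itih5 (103 kb). Some falls in functional lists were of long genes too. All 3 measured autophagy genes over 100 kb fell: Uvrag, a component of the autophagy PI3-kinase complex (254 kb, -0.80), Atg10, an E2-like conjugating enzyme (289 kb, -0.72), and Atg7, the E1-like enzyme (218 kb, -0.63). Of the other members of that list of 42, 3 fell and 3 rose; leaving out progeroid animal 321 or 323 or wild type animal 403 left 3 falls in the whole list, and without animal 321 there were 5 rises. The growth hormone receptor Ghr (266 kb) lay between 12.70 and 12.81 in wild type livers and between 12.24 and 12.40 in progeroid livers (-0.40), and the thyroid hormone receptor gene Thrb (381 kb) fell by 0.41. Msra, the repair enzyme for oxidised methionine (333 kb), fell by 0.75, and Gbe1, the glycogen branching enzyme (256 kb), by 0.70.

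Of 34 measured targets of p53, the transcription factor that DNA damage stabilises, 15 rose and none fell (median difference 0.31). With arrays centred on the median of the genes, 13 of these targets rose and 2 fell (median 0.21). Among those that halt the cell cycle, Cdkn1a, which encodes the kinase inhibitor p21, was 5.68, 5.54, 5.80, 5.81 and 5.68 in wild type livers and 7.49, 8.15, 7.64, 8.44 and 6.88 in progeroid livers. All progeroid animals were higher, animal 327 least so. The fold was 4.04 (limma adjusted p = 3.86e-05). Ccng1, cyclin G1, which feeds back on p53, was 8.92, 8.83, 9.03, 9.03 and 8.73 against 9.48, 9.73, 9.68, 9.85 and 9.80, a rise of 1.74-fold. Among other raised targets, Ckap2 rose by 1.29 log2 units. Psrc1 rose 1.67-fold and Plk2, a polo-like kinase, 1.71-fold, the latter with overlapping values.

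The genes of cell death in that list were Apaf1, the apoptosome scaffold (0.70 ± 0.13), Pmaip1, which encodes NOXA (0.53 ± 0.15), Eda2r, a death-domain receptor of the TNF family (1.13 ± 0.29), and Aen, an apoptosis nuclease (0.42 ± 0.13). Phlda3, an inhibitor of AKT, was 4.44, 4.26, 4.24, 3.86 and 3.80 in wild type and 5.05, 6.40, 6.49, 6.57 and 6.03 in progeroid livers, so that animal 321 lay nearest to the controls. Polk, a translesion DNA polymerase, rose by 0.76, the RNA-binding protein gene Zmat3 by 0.52 and the phosphatase gene Ptp4a3 by 0.55. The p53 antagonists Mdm2 and Mdm4 rose by 0.38 and 0.28, with overlap in both. Members that did not pass included Bbc3, which encodes PUMA (6.37 and 6.89), Fas (8.39 and 8.50) and Sesn2 (5.68 and 5.82). Cdkn2a, the p16 and p19 locus of senescent cells, was near the low end in both groups (3.13 and 3.10).

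The promoter of Cdkn1a is shown because it holds the spaced pair of p53 half-site cores. RefSeq promoters (GRCm38.p6, 250 bases before to 50 after a start) were found for 25 of the 34 targets. The pair CATG, 6 free bases, CATG, which reads the same on both strands, was in 1 of them, against 0.485% of 13605 genes with a promoter. The stretch lies at chr17:29090916-29090959 on the + strand, and the capitals mark the pair, which begins 48 bases before 1 of the annotated starts.
Cdkn1a: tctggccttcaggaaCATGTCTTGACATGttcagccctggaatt

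The interferon response was the most widely raised of the immune lists. Of 50 measured genes 24 rose and 1 fell (median difference 0.47). By role, 6 of 8 sensors of foreign nucleic acid rose. They included Tlr3, the endosomal receptor of double-stranded RNA, at 5.62, 5.94, 6.47, 5.88 and 6.11 in wild type livers and 7.00, 6.83, 6.98, 6.92 and 7.06 in progeroid livers. They also included Ifih1, which encodes MDA5 (0.65), Ddx58, which encodes RIG-I (0.27), Dhx58 (0.60), and Zbp1, a sensor of Z-form nucleic acid (0.94). In the signalling group Irf7, the transcription factor that amplifies the response, was 6.21, 6.17, 6.12, 5.81 and 5.83 against 6.63, 7.04, 6.97, 6.69 and 7.25, and Irf1 rose by 0.58. Mavs, the adaptor of RIG-I and MDA5, was the 1 gene that fell (-0.31 ± 0.07, with overlap).

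Effector genes gave 14 of the 24 rises. Usp18, which removes ISG15 from proteins and dampens the interferon receptor, was 6.27, 6.35, 6.75, 6.02 and 5.77 in wild type livers and 7.95, 8.19, 8.24, 8.56 and 9.04 in progeroid livers, a rise of 4.48-fold (limma adjusted p = 2.43e-05). Xaf1, a pro-apoptotic factor, was 6.61, 6.47, 6.37, 6.12 and 6.38 against 7.51, 7.92, 7.58, 7.74 and 7.63. In both genes the groups were far apart. Ifit1, which binds foreign RNA caps, was 5.82, 5.98, 6.91, 6.14 and 5.82 in wild type livers and 7.48, 7.19, 7.19, 6.81 and 8.19 in progeroid livers; wild type animal 403 exceeded progeroid animal 326. The same wild type animal had the highest Rsad2, which encodes viperin (6.67, 6.85, 7.83, 7.14 and 7.05 against 7.80, 8.04, 8.18, 8.25 and 7.98). Of 8 GTPases 2 rose, Gbp3 (0.95 ± 0.18) and Irgm1 (0.50 ± 0.12).

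Stretches of 6 promoters are printed to show the element found in them. The interferon-stimulated response element, searched as GAAA, any 2 bases and GAAA on both strands with overlapping matches kept, was found for 17 of the 37 list members with a promoter (45.9%), against 3.59% of 13605 genes. It was present in 8 of the 17 raised members and in 5.25% of all raised genes that had a promoter. Capitals mark 1 match in each stretch. Where the letters read TTTC first, the element runs on the other strand of the promoter.
Ifit1: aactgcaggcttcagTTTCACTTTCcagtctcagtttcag
Ifit3: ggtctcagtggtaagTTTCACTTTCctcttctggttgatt
Gbp3: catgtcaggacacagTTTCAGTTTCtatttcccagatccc
Irgm1: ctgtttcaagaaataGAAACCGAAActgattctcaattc
Rsad2: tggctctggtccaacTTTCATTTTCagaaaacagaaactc
Trim30a: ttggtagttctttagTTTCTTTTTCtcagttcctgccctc

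These lie at chr19:34640770-34640809 (Ifit1, + strand), chr19:34583358-34583397 (Ifit3, +), chr3:142559984-142560023 (Gbp3, +), chr11:48871421-48871459 (Irgm1, -), chr12:26456548-26456587 (Rsad2, -) and chr7:104465205-104465244 (Trim30a, -). The match begins between 24 and 156 bases before an annotated start. The 6 genes rose by 1.24, 0.59, 0.95, 0.50, 0.94 and 0.50 in that order, and were printed because they rose. The element was also found in list members that did not pass, among them Gbp2, Gbp7, Igtp, Irgm2, Oas3, Stat2 and Tgtp1. Antigen presentation stayed at the share of all genes: 2 of 18 genes passed (11.1%, against 11%). Psmb9, an immunoproteasome subunit (0.49), and Nlrc5, the class I transactivator (0.60), rose, and none of 8 class II genes did. Of the 8 class II genes 2 had an unadjusted p under 0.05. Without wild type animal 401, 404 or 405 neither Psmb9 nor Nlrc5 passed, and without progeroid animal 323, 325, 326 or 327 only 1 of them did.

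Of 52 genes of nucleotide excision and crosslink repair 7 rose and 3 fell (median difference 0.04), a share of 19.2% against 11% of all genes. The partner of ERCC1, Ercc4, which encodes XPF, was 5.25, 5.37, 5.24, 5.16 and 5.20 in wild type livers and 5.05, 5.07, 5.45, 4.67 and 5.39 in progeroid livers, which overlap. Xpa, the damage verification factor, averaged 7.59 and 7.49. In the TFIIH group Ercc3, the XPB helicase, rose by 0.46 and Ccnh, cyclin H, by 0.33, and in gap filling Rpa1, of the single-strand binding protein, by 0.54 and Pole, a DNA polymerase, by 0.45. Brca1 (0.62) and Uvssa, a factor of transcription-coupled repair (0.47), also rose, whereas Fanci (-0.28) and Fancl (-0.26) of the Fanconi pathway fell. Ercc1 was the only fall left without progeroid animal 323 or 326 or without wild type animal 401, 402 or 403. With the Gapdh covariate 4 of the 52 rose and 2 fell.

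Of 48 cell cycle genes 6 rose and 1 fell, a share of 14.6% against 11% of all genes (median difference 0.15). In the replication group 5 of 19 genes rose and 14 did not pass, with differences from -1.02 to 1.26. Mcm6, a subunit of the replicative helicase, was 5.42, 5.29, 5.90, 5.17 and 5.12 in wild type livers and 7.16, 6.80, 6.09, 6.35 and 6.81 in progeroid livers. Mcm4 (0.75), Mcm3 (0.37) and Mcm2 (0.31) of the same helicase and Gins2 (0.36) rose too, as did Rbl1, the retinoblastoma relative p107 (1.12 ± 0.15). The fall was Cdk2 (-0.31); 2 genes fell without progeroid animal 327 or wild type animal 405, and in the 10 arrays alone. None of 12 mitotic genes passed in limma, and 1 had an unadjusted p under 0.05. All 12 had wild type means under 5, where folds are understated, so a change could be missed. Top2a, a marker of dividing cells, was 4.06 and 4.07, and Mki67 3.75 and 4.12. With arrays centred on the median of the genes, 3 cell cycle genes rose and 2 fell. Myc, the growth factor-induced transcription factor, rose by 2.25 ± 0.47, from 5.80, 5.42, 7.63, 5.15 and 4.85 to 8.0, 8.38, 7.55, 9.47 and 6.71, and wild type animal 403 reached into the progeroid range.

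NRF2, encoded by Nfe2l2, is the factor that induces detoxifying enzymes when electrophiles accumulate. Of 29 genes in its list 8 rose and none fell (median difference 0.11). With arrays centred on the median of the genes 8 rose and 3 fell (median 0.00). Nfe2l2 itself was 9.56, 9.96, 10.05, 10.12 and 10.12 in wild type livers and 10.75, 10.70, 10.59, 10.60 and 10.40 in progeroid livers. Nqo1, a quinone reductase, was 5.60, 5.96, 5.71, 5.58 and 5.54 against 7.56, 6.40, 6.86, 6.67 and 7.28 (2.42-fold). Both genes separated the groups fully. Osgin1 rose 2.63-fold, Srxn1, sulfiredoxin, 1.75-fold, and Ugdh, which makes UDP-glucuronic acid, and Cbr3, a carbonyl reductase, 1.57-fold and 1.54-fold. The classic targets Gclc (11.82 and 11.84), Gclm (11.40 and 11.30), Txnrd1 (9.60 and 9.65) and Hmox1 (5.77 and 5.58) did not pass.

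Glutathione transferases conjugate glutathione to electrophiles. Of 18 measured 6 rose and none fell: Gsta2, Gsta4, Gstm3, Gstm4, Gstm5 and Gstt2. Gsta2 was 8.49, 8.42, 9.11, 9.10 and 8.35 in wild type livers and 10.88, 9.76, 9.96, 10.44 and 11.01 in progeroid livers, all higher. Gstm3 was 9.45, 9.09, 9.52, 9.06 and 9.47 against 11.13, 10.81, 10.68, 10.56 and 10.08. The median of the family was 0.08 and turns to -0.02 with arrays centred on the median of the genes, where 4 rose and 1 fell. Near-identical members of this family, as of the carboxylesterases, Cyp2c enzymes and acyl-CoA thioesterases below, can share probes, so that their values are not fully separate.

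Promoter stretches of 2 raised NRF2-list genes are given because they hold the core of the antioxidant response element, TGACNNNGC. That short core was present, on either strand, in 9 of 26 list members with a promoter (34.6%) and in 16.1% of 13605 genes. Among raised members it was in 3 of 8, and among all raised genes with a promoter in 16.1%, the share of all genes. It was also found in list members that did not pass, among them Gclm, Txnrd1, Maff and Mafg. The stretches lie at chr2:75704880-75704913 (Nfe2l2, - strand) and chr5:65435951-65435989 (Ugdh, - strand), and the capitals mark the core.
Nfe2l2: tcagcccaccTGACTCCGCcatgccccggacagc
Ugdh: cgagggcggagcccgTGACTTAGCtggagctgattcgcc

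Other enzymes of foreign compound metabolism moved both ways. Of 49 cytochromes P450 and their regulators 2 rose and 8 fell (median difference -0.06). Cyp2c29, an abundant arachidonate and drug oxidase, was 13.21, 13.35, 13.28, 13.43 and 13.06 in wild type livers and 12.21, 11.36, 11.96, 11.80 and 12.22 in progeroid livers. Cyp2c38 and Cyp2c39 of the same cluster fell 2.91-fold and 3.07-fold, and Cyp2c55 1.84-fold. Nr1i2, which encodes the pregnane X receptor, fell by 0.46, whereas Ahr, the dioxin receptor, rose by 0.51 and Cyp3a13 by 0.74. Other abundant P450 enzymes that did not pass included Cyp2e1 (13.83 and 13.82), Cyp3a11 (13.70 and 13.59) and Cyp1a2 (12.02 and 11.69). With the Gapdh covariate 5 members fell.

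Conjugation enzymes gave 8 rises and 7 falls among 32. Sult5a1, a sulfotransferase, was 7.96, 7.88, 8.98, 8.73 and 8.08 in wild type livers and 5.41, 6.49, 6.03, 6.02 and 5.76 in progeroid livers (5.22-fold lower). The carboxylesterases, which hydrolyse esters of drugs and lipids, split. Ces1f went from 11.81, 12.31, 12.14, 11.91 and 12.04 to 10.17, 10.52, 10.06, 10.05 and 10.20, Ces1e fell 3.67-fold, Ces2a and Ces1d fell by 0.88 and 0.82, and Ces1g rose by 0.68. The flavin monooxygenases Fmo1 (0.60) and Fmo5 (0.57) and the thiopurine methyltransferase Tpmt (0.49) rose.

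Acyl-CoA thioesterases release fatty acids from coenzyme A. Of 12 measured 6 fell and 1 rose (median difference -0.30). Acot1, the cytosolic enzyme, was 7.89, 8.03, 8.53, 7.70 and 7.16 in wild type livers and 6.31, 5.96, 5.51, 6.55 and 5.94 in progeroid livers. Acot2, its mitochondrial relative, fell 3.33-fold, but a second probe set without a suffix for shared sequence gave a difference of -0.13 that did not pass. Acot3, Acot7, Acot11 and Acot12 fell by 1.49, 0.64, 0.62 and 0.30. Acot9 alone rose, from 5.66, 5.48, 5.67, 5.58 and 5.64 to 7.03, 6.84, 6.36, 6.70 and 7.18.

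Of 26 genes of lipogenesis 6 fell and none rose (median difference -0.27). Besides Mfsd2a these were Acacb, the mitochondrial acetyl-CoA carboxylase (-1.66), Lpin1, a phosphatidate phosphatase (-1.56), Me1, malic enzyme (-1.07), Scd1, the stearoyl-CoA desaturase (-0.61), and Elovl5, a fatty acid elongase (-0.56). The progeroid animals were not alike here. Scd1 was 13.66, 13.65, 12.86, 13.17 and 12.34 in them, so that animals 321 and 323 lay within the wild type range of 13.60 to 13.95. Without progeroid animal 325 only 1 of the 6 passed, and without wild type animal 405 only 2. With the Gapdh covariate 1 of the 26 genes fell, and in a fit of the 10 control diet arrays alone 1 fell; in both this was Mfsd2a. Fasn, fatty acid synthase, overlapped fully: 10.47, 10.28, 10.97, 11.03 and 12.19 against 12.56, 11.35, 10.03, 9.59 and 10.42.

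In lipid uptake and storage, 4 of 20 genes rose and 4 fell. Lpl, lipoprotein lipase, which adult hepatocytes hardly make, was 7.85, 7.31, 7.90, 7.12 and 8.07 in wild type livers and 9.10, 9.46, 9.91, 9.84 and 9.39 in progeroid livers. Cd36, the fatty acid receptor, was 7.60, 7.40, 8.20, 7.65 and 7.40 against 9.69, 9.02, 8.66, 9.06 and 9.52. Both were higher in every progeroid animal. Fabp4 (0.48), the fatty acid binding protein of adipocytes and macrophages, and Hilpda (0.54), a lipase inhibitor on droplets, rose; Vldlr, the very low density lipoprotein receptor, fell from 5.03, 5.71, 5.20, 4.68 and 5.69 to 3.73, 3.51, 3.42, 3.56 and 3.54. The probe sets of Fabp4 and Mgll that carry no suffix for shared sequence gave the opposite sign (-0.08 and 0.04) without passing. The monoglyceride lipase Mgll (-0.77) and the droplet coat protein gene Plin5 (-0.68) fell. None of 3 adipocyte markers passed in limma, adjusted or not, and all 3 had wild type means under 5.

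Fatty acid oxidation gave 2 rises and 2 falls among 41 genes, a share of 9.76% against 11% of all genes. The falls were the peroxisomal thiolases Acaa1a (-0.69) and Acaa1b (-0.81). Only 1 gene rose without progeroid animal 321, 323 or 327 or wild type animal 402 or 404. The same held with the Gapdh covariate and in the 10 arrays alone. None of 16 enzymes of cholesterol synthesis passed in limma, and 1 had an unadjusted p under 0.05. Scap, the escort of SREBP, fell by 0.43 but not without progeroid animal 321 or 327 or without wild type animal 401, 403 or 405. Tat, tyrosine aminotransferase, was 12.31, 12.70, 12.21, 12.53 and 12.61 in wild type livers and 11.48, 11.54, 11.53, 11.56 and 11.69 in progeroid livers, a fall to one common level. Ppp1r3g, a glycogen-targeting subunit of protein phosphatase 1, fell 2.61-fold from widely spread wild type values (5.63 to 7.50), and the call is lost without any 1 of 4 progeroid animals (321, 323, 325, 327) or of 3 wild type animals (402, 404, 405). The gluconeogenic gene G6pc was 12.35 and 11.98 and did not pass.

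Of 38 genes of the growth hormone, IGF1 and thyroid axis 4 fell and 2 rose, a share of 15.8% against 11% of all genes (median difference -0.05). Of 9 receptors Ghr and Thrb fell, as given above, and of 10 transducers Pik3r1, a regulatory subunit of phosphoinositide 3-kinase (-0.48). The rises were Sesn3, a sestrin (0.65), and Trib3, a pseudokinase (0.96). The fourth fall, Dio1, the deiodinase that activates thyroid hormone and is itself induced by it, was 10.90, 11.14, 11.03, 10.80 and 10.74 in wild type livers and 9.62, 10.02, 9.79, 10.02 and 9.44 in progeroid livers. With the Gapdh covariate 2 of the 38 fell, and with arrays centred on the median of the genes 10 did. Only 1 rose without progeroid animal 325 or 326 or wild type animal 401, and 4 rose without progeroid animal 327. Igf1, the growth hormone target secreted by liver, was 12.46 to 12.52 in wild type and 12.11 to 12.45 in progeroid livers; the difference of -0.17 ± 0.06 had an adjusted p of 0.0906. Of 17 genes that male livers express more strongly, under pulsed growth hormone, 4 fell and 1 rose (median difference -0.30). Serpina12, Sult5a1, Serpina4-ps1 and Cyp2u1 were the falls and Selenbp2 (0.49) the rise. Of 19 genes stronger in female livers 3 fell and none rose (15.8%, against 11% of all genes). The falls were Acot3, Abcd2 (-1.26) and Ntrk2 (-1.25). Of 17 hepatocyte identity genes Hnf4a, the master regulator of hepatocyte genes, was the only one past the threshold, at 11.91 to 12.28 in the 5 wild type livers against 11.63, 11.80, 11.77, 11.79 and 11.75.

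Hspa1b, an inducible HSP70, was 11.19, 10.56, 10.07, 11.22 and 8.20 in wild type livers and 7.42, 8.17, 7.83, 8.64 and 8.97 in progeroid livers. Noct, a rhythmic nuclear and mitochondrial phosphatase known as nocturnin, was 10.15, 10.07, 9.25, 9.12 and 8.18 against 7.25, 6.56, 6.71, 7.49 and 9.77. In both, wild type animal 405 was lowest and progeroid animal 327 highest of their groups. Of 20 heat shock and cold-inducible genes 4 fell and 1 rose (25%, against 11% of all genes). Among 22 clock genes 2 fell and 1 rose (13.6%). Without animal 327 the falls among clock genes were 5 and without animal 405 they were 4, whereas leaving out any other single animal left 1. The rise in the heat shock list, Cirbp (0.75), was lost without progeroid animal 323, 325 or 326 or wild type animal 401, 402 or 404. With the Gapdh covariate, or in the 10 arrays alone, 2 genes of that list fell, and in the 10 arrays alone 1 clock gene. Falls in the heat shock list were 1 without wild type animal 401, 402 or 404 and 2 without progeroid animal 321, 323 or 325. Time of death is not among the labels, and its part in these values was not tested.

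Of 21 Kupffer cell and macrophage genes 6 rose (28.6%, against 6.7% of all genes), 15 did not pass and none fell (median difference 0.35). Mpeg1, perforin-2 of macrophages, was 9.73, 9.62, 9.65, 9.40 and 9.33 in wild type livers and 10.10, 10.42, 10.44, 10.44 and 10.18 in progeroid livers. Clec4f, which in liver marks resident Kupffer cells, rose by 0.48, Vsig4, their complement receptor, by 0.59, Lyz2, lysozyme, by 0.62, and Lgals3, galectin-3, by 1.07. The macrophage elastase Mmp12 was 3.87, 3.79, 4.02, 3.80 and 4.16 against 5.32, 5.32, 5.11, 6.38 and 5.77. The pan-macrophage genes Adgre1 (7.50 and 7.58), Csf1r (7.34 and 7.34) and Cd68 (6.35 and 6.85) did not pass. With the Gapdh covariate 11 of the 21 rose.

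Of 10 neutrophil genes 2 rose, S100a8 and S100a9, the subunits of calprotectin. S100a8 was 3.04, 3.57, 3.35, 2.99 and 3.55 in wild type livers and 5.09, 4.86, 4.38, 4.58 and 4.94 in progeroid livers, while the granule gene Ngp stayed low in both (3.60 and 3.50). None of 13 T and NK cell genes passed in limma (2 at an unadjusted p under 0.05), and 1 fell without progeroid animal 326. All 13, and all 10 neutrophil genes, had wild type means under 5, so changes in them could be missed. Acute phase plasma proteins gave 6 rises among 23, with Lcn2 first, then Orm2, orosomucoid 2 (1.11), Saa3 (0.70), Serpina3n (0.54), Apcs (0.44) and Hp, haptoglobin (0.28). Cebpb, a transcription factor of that response, fell by 0.67, with overlap.

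Of 33 matrix genes 7 rose (21.2%, against 6.7% of all genes), 26 did not pass and none fell (median difference 0.22). Postn, periostin, was 6.75, 6.43, 6.66, 6.36 and 6.84 in wild type livers and 7.69, 7.90, 7.95, 7.69 and 7.95 in progeroid livers. Col4a1, basement membrane collagen (0.88), the proteoglycans Lum (0.95) and Dcn (0.48), Vim (0.59), Mmp2 (0.55) and Mmp12 were the others. The fibrillar collagen gene Col1a1 (3.79 and 3.86) and the myofibroblast gene Acta2 (6.0 and 5.92) did not pass. Nor did the bile duct genes Krt19 (3.79 and 3.95), Epcam (4.41 and 4.65) and Sox9 (4.07 and 4.24). The share of these cells in each liver was not measured, and its part in the rises was not tested.

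**Figure D4:**
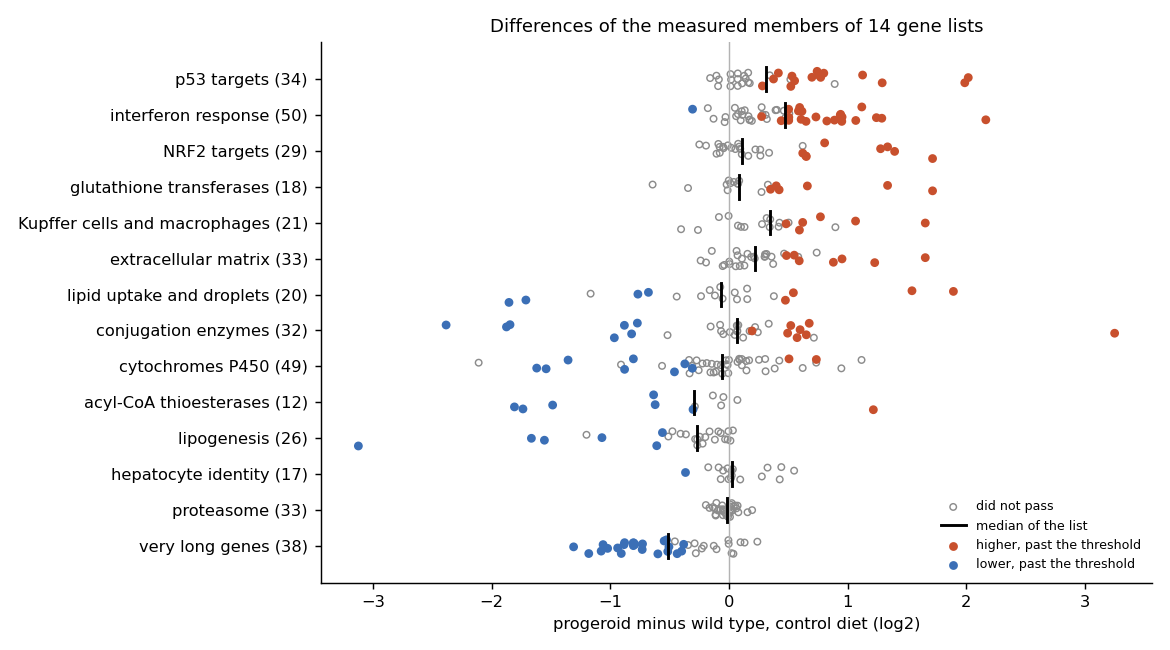
Difference between progeroid and wild type livers on the control diet (log2) for each measured member of 14 gene lists, with the number measured in brackets; filled points passed the threshold, open points did not, and the black bar is the median. The p53 and interferon lists lean right (medians 0.31 and 0.47) and the very long genes left (-0.51), while the 33 proteasome genes stay near 0 with none past the threshold.

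Of 33 proteasome genes none passed in limma (3 at an unadjusted p under 0.05), of 64 cytosolic ribosomal protein genes 1 rose (Rpl12, 0.32), and of 65 genes of the respiratory chain and ATP synthase 1 fell (Ndufb8, -0.19). When 1 animal was left out, Rpl12 kept its call only without progeroid animal 323, 325 or 326, and Ndufb8 only without progeroid animal 323 or wild type animal 403. Medians of these lists were -0.02, 0.05 and -0.06. With arrays centred on the median of the genes the counts became 4, 2 and 23 falls.

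The restricted mice gave a second, separate set of animals for the genotype contrast, with 2948 genes past the threshold (17.2%). Of the 1145 genes that rose on the control diet 692 also rose there (60.4%, against 11.8% of all genes), and of the 738 that fell 267 also fell (36.2%, against 5.44%). Direction alone was the same for 90% of the 1883 changed genes and for 65.4% of all genes. Changed in both and in opposite directions were 13. Afp rose by 3.84 on the restricted diet, Serpina12 fell by 3.07, Usp18 rose by 2.91, Fhit fell by 1.10 and Cdkn1a rose by 1.23.

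The genotype effect itself differed between diets in 240 genes (1.4%), of which 100 were among the 1883. Sult1e1 differed most among the genes named here: it rose by 3.25 on the control diet and differed by -0.59 on the restricted diet, where it did not pass (difference of effects -3.84, limma adjusted p = 0.0113). Mfsd2a was -3.12 and then -0.52, Acot1 -1.81 and then -0.05, and Acot2 -1.74 and then -0.18. Pls1 (3.42 and 1.73), Lcn2 (2.91 and 1.42), Slc16a5 (2.38 and 0.39), Hsd3b4 (2.64 and 1.22) and Dnaic1 (2.22 and 0.75) were also smaller on the restricted diet. In the other direction, Rsad2 went from 0.94 to 2.08, and Gpx6, a glutathione peroxidase of the defence list, from 1.35 to 3.32. From control to restricted diet, mean Sult1e1 went from 4.44 to 10.05 in wild type and from 7.69 to 9.46 in progeroid livers. In that order Slc16a5 went from 4.33 to 7.90 and from 6.71 to 8.29, and Lcn2 from 5.24 to 7.30 and from 8.15 to 8.72. Pls1 went from 4.70 to 6.39 in wild type and stayed at 8.12 in progeroid livers. Mfsd2a went from 9.85 to 10.05 and from 6.73 to 9.53. Hsd3b4 and Dnaic1 had lower means on the restricted diet in both genotypes. In the list of very long genes, 23 of 38 fell on the control diet with a median difference of -0.51, and 18 fell on the restricted diet with a median of -0.30. Genes over 500 kb with a mean level above 5 had median differences of -0.45 and then -0.23, and those from 200 to 500 kb -0.22 and then -0.23. The effect was -1.31 and then -1.10 for Fhit, and -1.06 and then -1.05 for Dpyd. Tenm3 was -1.51 and then -0.72, a difference of effects that did not pass (limma adjusted p = 0.198), and Fars2 was -1.33 and then -0.54, which did (limma adjusted p = 0.0452).

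**Figure D5:**
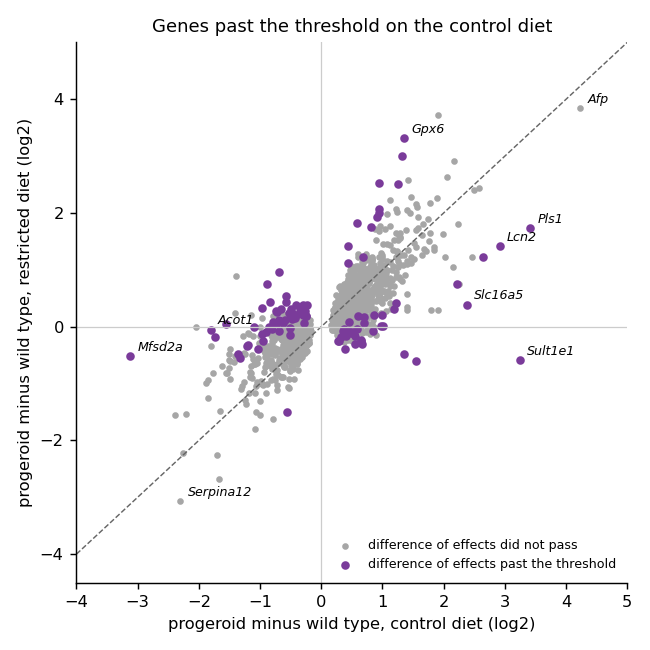
Genotype effect on the restricted diet against that on the control diet (both log2, different animals) for the 1883 genes past the threshold on the control diet; the 100 purple points also differed between the diets, and the dashed line marks equal effects. Afp lies near the line, Sult1e1 and Mfsd2a near 0 on the vertical axis.

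The spread between animals of a group was compared as well. The mean distance of an animal from its group median over 8878 genes was 0.12 ± 0.01 in wild type and 0.14 ± 0.04 in progeroid livers (exact permutation test, two-sided, p = 0.468). The median SD of a gene was 0.14 and 0.17. The SD was more than 2 times larger in progeroid livers for 1675 genes and in wild type livers for 703. The genes with the widest progeroid spread were Gadd45g, Usp2, Pnpla3, Socs2 and Mvd, and none of the 5 passed the test between genotypes. Gadd45g, a stress-induced growth arrest gene, was 9.20, 10.41, 9.79, 10.70 and 5.35 in progeroid livers, set apart by animal 327. Usp2, a clock-driven ubiquitin protease, was 3.46, 3.73, 4.18, 4.64 and 8.16, with the same animal high, but ran from 4.44 to 8.54 in wild type livers as well. Pnpla3, a lipase induced by feeding, was 8.31 in animal 321 and between 4.32 and 5.44 in the rest of its group. Socs2, a feedback inhibitor of growth hormone signalling, ran from 7.24 to 11.06 in progeroid and from 5.90 to 8.80 in wild type livers.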

How the data were processed

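Liver RNA of 20 mice was measured on Affymetrix arrays, 1 array per mouse. The authors deposited log2 values after RMA, per the submitters' processing notes; of the RMA version and the genome build of the array, the sources used here give nothing. The table held 45141 probe sets. Of the 28898 with 1 gene symbol, the one with the highest mean over the 20 arrays stood for its gene, which gave 17097 genes. Array medians lay between 4.17 and 4.21 and correlations between arrays from 0.979 to 0.997; no further normalization was applied.

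limma 3.58.1 estimated a mean for each of the 4 groups from the 20 arrays together (lmFit, eBayes; 16 residual and 4.21 prior degrees of freedom; R 4.3.3), with Benjamini-Hochberg adjustment over all 17097 genes. For 1 value per animal the exact permutation test was used, in Python 3.11.15. In simulated data 36%, 82%, 100% and 98% of genes changed 1.25-fold, 1.5-fold, 2-fold and 3-fold were recovered (50 each). The simulation held 17097 genes with independent noise, and 4 of the unchanged ones were called. Genes named are the 25 largest rises and falls, the called members of gene lists, defining markers and targets, the longest called genes and the most variable; a few others were chosen after their values were seen. The members and lists were chosen with earlier results of these data known. Of 1573 list entries 1375 matched a measured gene. P-values measure the spread between these animals.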

Additional observations from a re-analysis of the deposited data

Results flagged for a closer look

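In groups of 5, an animal was set apart when its gap to the nearest of the others, over the range of the group, exceeded Dixon's critical value of 0.71. Among the 233 genes printed here this held for 22 of 466 groups of control diet livers, and chance gives about 1 in 20. Values are log2 levels. Wild type animal 401 stood apart in Alb (14.23, the rest 14.27 to 14.28), Ccdc61 (4.56, the rest 4.87 to 4.98), Ubd (4.47, the rest 3.75 to 3.82), Pard3b (5.68, the rest 6.08 to 6.24), Nfe2l2 (9.56, the rest 9.96 to 10.12) and Lyz2 (9.88, the rest 9.51 to 9.58). Progeroid animal 325 stood apart in Cd24a (6.54, the rest 6.75 to 6.82). Progeroid animal 323 stood apart in Slc16a5 (5.60, the rest 6.87 to 7.14). Wild type animal 402 stood apart in Hsd3b4 (3.95, the rest 4.14 to 4.21), Gbe1 (9.85, the rest 10.05 to 10.12) and Cyp3a13 (10.32, the rest 10.04 to 10.07). Progeroid animal 321 stood apart in Ghr (12.24, the rest 12.36 to 12.40), Hnf4a (11.63, the rest 11.75 to 11.80) and Pnpla3 (8.31, the rest 4.32 to 5.44). Wild type animal 404 stood apart in Cdk2 (6.71, the rest 6.98 to 7.05). Progeroid animal 327 stood apart in Gclc (11.25, the rest 11.86 to 12.04), G6pc (10.88, the rest 12.09 to 12.36), Gadd45g (5.35, the rest 9.20 to 10.70) and Usp2 (8.16, the rest 3.46 to 4.64). Wild type animal 403 stood apart in Gstm4 (9.02, the rest 8.70 to 8.79) and Acaa1b (13.23, the rest 13.10 to 13.13). Wild type animal 405 stood apart in Pnpla3 (7.36, the rest 4.66 to 5.36).

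The genotype effect (progeroid minus wild type, log2) differed between the restricted and the control diet, by the interaction term in limma with Benjamini-Hochberg adjustment, for 20 of the genes printed. The restricted minus control difference of effects was above 0 for Mfsd2a (2.61), Fars2 (0.79), Rsad2 (1.13), Gbp3 (1.05), Cyp2c29 (0.88), Cyp2c55 (1.63), Acot1 (1.76), Acot2 (1.55), Acot12 (0.68), Acaa1a (0.80), Acaa1b (0.77) and Gpx6 (1.97). It was below 0 for Pls1 (-1.69), Sult1e1 (-3.84), Lcn2 (-1.50), Slc16a5 (-2.00), Hsd3b4 (-1.42), Dnaic1 (-1.46), Fmo1 (-0.42) and Selenbp2 (-0.60). Rsad2, Gbp3 and Gpx6 rose more on the restricted diet; Sult1e1, Selenbp2, Cyp2c55, Acot12 and Acaa1a had effects of opposite sign on the diets, and the other genes had a smaller effect of the same sign on the restricted diet.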

How the results depend on the processing

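The number of arrays, 5 a group, limits what can be called: at this size the simulation recovered 36% of the smallest changes simulated. It changed far fewer genes than were called here and gave each gene independent noise. Its shares need not hold for this comparison. Of the 195 genes printed as past the threshold, 134 kept their call under every alternative in which they were tested. When any 1 animal was left out, 148 kept it. Only 166 of the 195 were tested without suffixed probe sets, and only 170 in the fit of genes with a mean over 5. The rest were not put to those alternatives. Among those that lost it without some animals were Aen, Apcs, Mdm4, Fanci, Fancl, Brca1, Noct, Robo2, Ifit3, Acot12, Vim, Ddx58, Ccdc61, Sympk, Dmwd, Ppp1r13l, Acacb, Lpin1, Mcm3, Gstt2, Pik3r1, Trib3 and Ank2. The Gapdh 3′ minus 5′ covariate removed the most calls at once (42), among them those of the lipogenesis genes other than Mfsd2a.

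Leaving out 1 animal gave 923 to 1089 rises, 577 to 734 falls, an Ercc1 difference of -1.30 to -1.19, a long minus short difference of -0.22 to -0.18 and a difference in spread of 0.0021 to 0.0262. In a fit of the 10 control diet arrays alone 1006 genes rose and 596 fell. Falls numbered 473 with the Gapdh covariate and 1148 over all probe sets with 1 symbol (not 1 per gene). The array centring planned did not say over which features the median is taken. Both forms were run, and which of them was the planned one was settled after their counts were seen: with the median over all probe sets the falls were 872, and with the median over genes, added after seeing the data, they were 2798 and the genes changed alike on both diets 2194 instead of 959. Without suffixed probe sets, which can bind several transcripts, Ercc1 was 0.0203 and the sign of Ank2 (-0.13), Fabp4 (-0.0838) and Mgll (0.0358) turned; the gene is then read by another probe set. No paired analysis was possible because the groups share no animal numbers.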
